A study of Mus musculus with 6 samples.

Results

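Macrophages of the mouse aortic root that carried C1q but lacked the markers of tissue-resident macrophages were described in single-cell libraries of lineage-negative cells. A cell was a member with at least 5 unique molecular identifiers (UMIs) of Tyrobp and Fcer1g together, at least 5 of C1qa, C1qb and C1qc together, and fewer than 3 of Folr2, Lyve1, F13a1 and Cd163 together. Cells entered with 1000 or more UMIs, 500 or more genes and no more than 10% mitochondrial UMIs. Members numbered 1355 of 17878 lineage-negative cells kept, and the whole series held 41759 cells kept in 6 libraries. C1q macrophages with 3 or more UMIs of the 4 resident markers, 1140 cells, are called resident macrophages and were the comparison.

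All mice were males of 24 weeks. The study had 3 genotypes: littermate controls, mice with the C1041G allele of Fbn1 on one chromosome (a model of Marfan syndrome, called Marfan), and Marfan mice whose Klf4 genotype was given as floxed. Aortic roots of 4 animals were pooled in each group, digested with Liberase and elastase, and sorted by tdTomato, the reporter of the traced smooth muscle lineage. Control and Marfan animals carried wild-type Klf4. The series title places the Klf4 deletion in smooth muscle cells, and the macrophages came from the fraction sorted as not of that lineage. The Cre driver is not given in the sources used here. There was 1 library per group and fraction. No value has a replicate error, no test was run, and every difference compares 1 library with 1 library, not the conditions. Intervals are exact 95% intervals that cover counting error only.

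The targeted gene was read first. In the lineage-positive libraries Klf4 stood at 29.7 UMIs per 1000000 (CPM) in control, 45.4 in Marfan and 119 where the label is Klf4-floxed. In the lineage-negative libraries it stood at 277, 267 and 358 CPM. Klf4 RNA was thus not lower in either fraction labelled floxed, and the group is called the floxed-labelled library throughout. A 3' count may lie outside a deleted part and then checks nothing. TDT, the reporter feature, had a UMI in 2.52% to 4.9% of lineage-negative cells and in 62.8% to 89.0% of lineage-positive ones.

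Macrophages of the vessel wall fall broadly into cells settled in the tissue for long periods, which clear debris and carry scavenger receptors such as Lyve1, Folr2, Cd163 and Mrc1, and cells that present antigen on MHC class II and express Ccr2 or Cx3cr1 programmes. C1q, the first component of the classical complement pathway, is made largely by macrophages and separates them from monocytes. Cd72 is an inhibitory receptor best known from B cells, and Ccl4 and Ccl3 are chemokines that attract monocytes and lymphocytes.

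Of the markers in the label, Cd72 and Ccl4 were outside the rule. C1qa was part of it, so its share, 98.1% to 99.6% of members, was fixed by the choice of cells. Cd72 stood at 642, 704 and 659 CPM in members of control, Marfan and the floxed-labelled library, against 58.8, 170 and 108 in resident macrophages. After every cell was thinned to 2000 UMIs, Cd72 had a UMI in 56.1%, 59.4% and 53.2% of members, against 7.14%, 21.98% and 16.9% of resident macrophages and 0.456% to 0.726% of stromal cells, a type that should lack it. The unthinned shares of members were 85.2%, 84.2% and 79.1%, and thinning left out 15 Marfan members and 7 in the floxed-labelled library. Ccl4 stood at 2490, 1392 and 2186 CPM in members and 441, 831 and 1193 in resident macrophages, and was 5.65-fold, 1.67-fold and 1.83-fold higher. Both genes were higher in members than in resident macrophages within each library, which describes cells split on these same counts.

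Depth was close between the cells compared. The median was 11027, 10242.5 and 9270 UMIs per member in control, Marfan and the floxed-labelled library, 10708, 9882 and 8988 per resident macrophage, and 10404 to 11240 per stromal cell. Between 3 and 27 cell barcodes were shared by any pair of the 6 libraries, at most 0.425% of the smaller one. Scrublet marked 5, 20 and 26 members as doublets, which were kept here and left out as an alternative. In the lineage-positive libraries the rule was met by 1 barcode in control, 9 in Marfan and 13 in the floxed-labelled library.

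Members made up 155 of 4510 lineage-negative cells in control, 3.44% [2.92, 4.01]. The share was 740 of 7105 in Marfan, 10.4% [9.71, 11.1], and 460 of 6263 in the floxed-labelled library, 7.34% [6.71, 8.02]. The 3 intervals did not overlap. Resident macrophages took 5.68% [5.02, 6.39], 6.46% [5.9, 7.06] and 6.79% [6.18, 7.44] of the same cells, a narrower range. Of all C1q macrophages, members were 37.7% [33.0, 42.6] in control, 61.7% [58.9, 64.5] in Marfan and 52.0% [48.6, 55.3] in the floxed-labelled library. Monocytes, gated on at least 3 UMIs of Ly6c2 and Plac8 with C1q under 5, numbered 4, 177 and 9 cells, 0.0887%, 2.49% and 0.144%. Dendritic cells, gated on Cd209a and Flt3, numbered 9, 36 and 21.

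**Figure D1:**
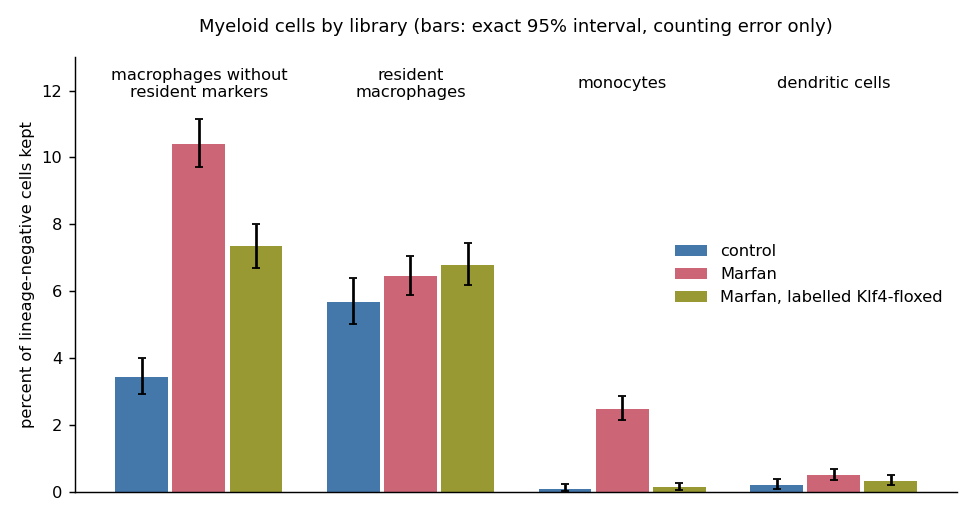
Percent of lineage-negative cells kept (vertical axis) in 4 myeloid gates, for the control, Marfan and floxed-labelled libraries; bars are shares of 1 library and lines exact 95% intervals for counting error. Macrophages without resident markers ran from 3.44% to 10.4%, while resident macrophages stayed between 5.68% and 6.79%.

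Most members held no UMI of the resident markers, and the rest lay near the threshold. Of members, 115 in control, 577 in Marfan and 372 in the floxed-labelled library had no UMI of the 4 resident markers, 32, 118 and 53 had 1, and 8, 45 and 35 had 2. Just outside, 3, 29 and 15 cells had 3 UMIs. Cd72 stood at 374, 217 and 536 CPM in cells with 2 UMIs and at 29.5, 320 and 260 CPM in cells with 3, so that the step across the threshold was downward in 2 libraries and upward in Marfan. At 0 UMIs Cd72 stood at 684, 774 and 706 CPM, and above 20 UMIs at 44.3, 104 and 79.3. Mrc1, the mannose receptor of resident macrophages, was not in the rule and went the other way, from 122, 230 and 249 CPM at 0 UMIs to 2137, 2048 and 2365 above 20. These values describe what the rule cut and support nothing else.

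**Figure D2:**
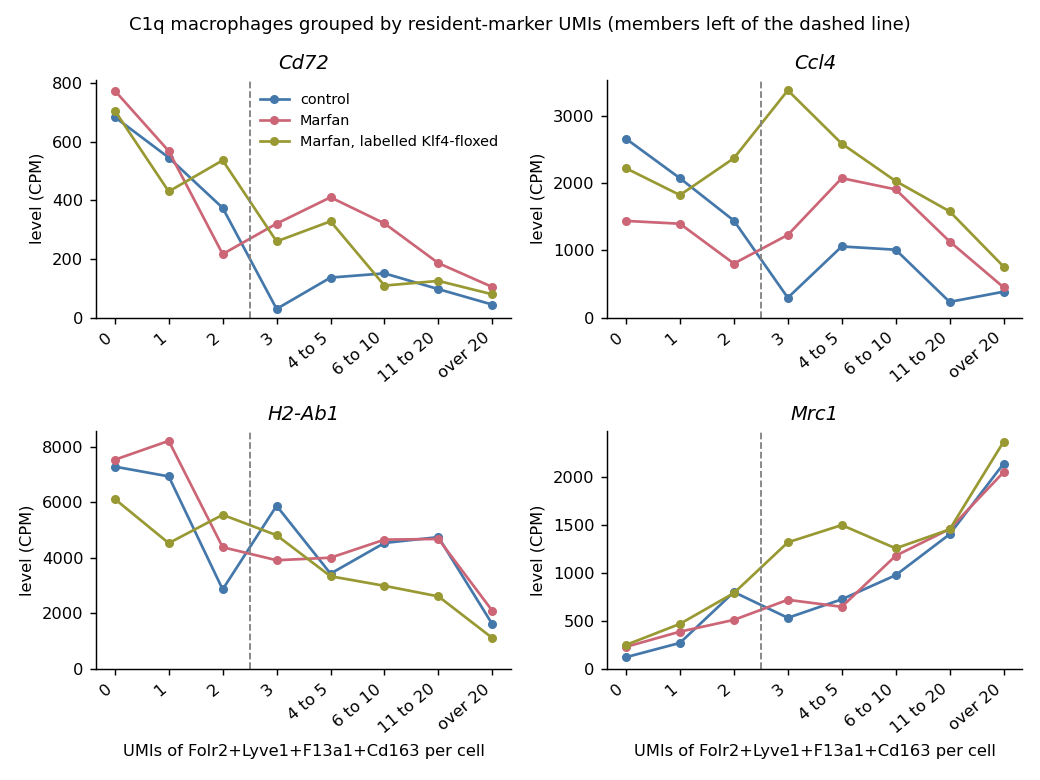
Levels of Cd72, Ccl4, H2-Ab1 and Mrc1 (vertical axes, CPM) in C1q macrophages grouped by their UMIs of Folr2, Lyve1, F13a1 and Cd163 (horizontal axes), 1 line per library; members lie left of the dashed line. Cd72 was highest at 0 UMIs and lowest above 20 UMIs in Marfan, at 774 and 104 CPM, and Mrc1 was lowest at 0 UMIs in all 3 libraries; the groups of 3 UMIs hold 3 to 29 cells.

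Against resident macrophages, members carried more RNA of MHC class II genes in all 3 libraries, less of most efferocytosis genes, and more of some chemokines and less of others. Of 5541 genes measured in every library, 238 (4.3%) were at least 1.5-fold higher in members in all 3 and 649 (11.7%) at least 1.5-fold lower. The median of all genes lay at -0.26, -0.16 and -0.16 on the log2 scale in control, Marfan and the floxed-labelled library. When that median was moved to 0 by median-of-ratios scaling, 357 genes were higher and 452 lower. Within 1 library the background was wider: in control 9.53% of genes were higher and 28.4% lower, in Marfan 6.85% and 16.2%, in the floxed-labelled library 7.5% and 20.1%. The rule chose the cells by resident markers on these same counts, so the values against resident macrophages are a description. A gene counts as measured with at least 20 CPM in the higher of the groups compared.

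Genes farthest above resident macrophages were led by Itgax. Itgax, the CD11c integrin chain of antigen-presenting cells and of many inflammatory macrophages, stood at 92.7, 92.6 and 86.4 CPM in members of control, Marfan and the floxed-labelled library, against 3.29, 4.97 and 1.17 in resident macrophages. The difference was 28.2-fold, 18.6-fold and 74.0-fold. Zmynd15, a zinc-finger gene, stood at 177, 251 and 141 CPM against 10.2, 13.1 and 9.81. Il2ra, a chain of the interleukin-2 receptor, stood at 95.3, 52.7 and 51.3 CPM against 0, 4.38 and 0.234, which is at least 96.7-fold in control, where resident macrophages had no UMI. The other genes of the same rank all stood higher in members: Spn (a sialomucin of leukocytes), Cadm1 and F11r (cell adhesion), Bcl2a1a (survival), Tnfsf13b (the B-cell factor BAFF), Glipr1, Mmp12 (macrophage elastase) and Nes (nestin, an intermediate filament). Glipr1, in 71.1% to 78.7% of members, stood at 380, 319 and 305 CPM against 36.8, 69.6 and 56.3. Mmp12 stood at 248, 84.7 and 158 CPM against 17.1, 18.7 and 4.2, with 36.4% to 40.5% of its UMIs in the 5 members that held most. Runx3, a Runt transcription factor, stood at 112, 94.8 and 99.7 CPM against 13.1, 34.2 and 21.02.

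Genes farthest below resident macrophages were led by Cd209f. Cd209f, a C-type lectin, had 0.518, 0.462 and 0.421 CPM in members, which is 1 to 4 UMIs per library, and 302, 153 and 149 CPM in resident macrophages. Cbr2, a carbonyl reductase, stood at 18.1, 27.3 and 30.5 CPM against 705, 778 and 802. Cd209g, Clec10a (lectins), Fcna (ficolin A), Timd4 (a phosphatidylserine receptor), Ednrb (endothelin receptor B), Npl, Chp2, Cd38, Bank1 and Retnla were also at least 1.5-fold lower in every library. Mrc1 was 10.7-fold, 6.26-fold and 6.42-fold lower. Maf, a transcription factor of resident macrophages, stood at 155, 165 and 207 CPM against 1210, 906 and 1030. Genes carried by macrophages in general were mixed. In all 3 libraries 1 of 12 was at least 1.5-fold higher and 4 lower, against 4.3% and 11.7% of all genes. In control 5 were higher and 4 lower, against 9.53% and 28.4%. Of those lower, Lyz2, lysozyme, stood at 6891, 6164 and 7384 CPM against 15356, 12525 and 14390, and Csf1r, the receptor for the growth factor CSF1, at 481, 443 and 561 against 1022, 858 and 1049. Cd68, a lysosomal glycoprotein of all macrophages, was level at 389, 385 and 395 CPM against 425, 430 and 409. All 19 measured genes of a list of 20 resident-macrophage genes were at least 1.5-fold lower in all 3 libraries, which the rule largely fixed.

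**Figure D3:**
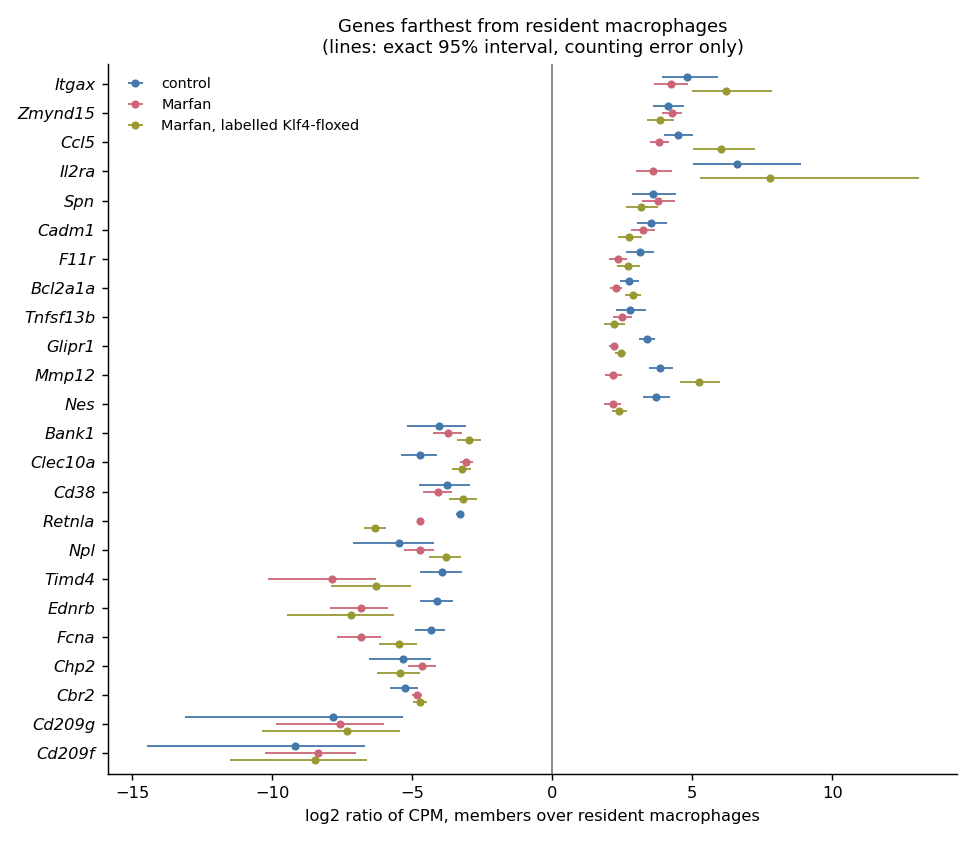
Log2 ratio of CPM in members over resident macrophages (horizontal axis) for the 12 genes farthest above and the 12 farthest below, 1 point per library with its exact 95% interval for counting error. Itgax lay between 4.22 and 6.21 and Cd209f between -9.19 and -8.37; the Il2ra point of control is a bound because resident macrophages had no UMI.

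MHC class II genes present peptides from taken-up protein to CD4 T cells and are controlled together by the coactivator Ciita. All 7 measured genes of a list of 10 were at least 1.5-fold higher in members in all 3 libraries, against 4.3% of all genes. The list medians were 1.63, 1.35 and 1.59 on the log2 scale in control, Marfan and the floxed-labelled library. H2-Ab1, the beta chain of I-A, stood at 7035, 7439 and 5882 CPM against 2164, 2880 and 1772 in resident macrophages. H2-Aa, its partner alpha chain, stood at 7410, 7748 and 6282 CPM against 2671, 3035 and 2083. Cd74, the invariant chain, stood at 23424, 21720 and 18588 CPM against 6789, 8326 and 5819. The peptide-loading chain H2-DMb1 stood at 499, 508 and 426 CPM against 161, 220 and 164, and Ciita itself at 47.7, 49.4 and 36.8 against 29.6, 27.3 and 15.6. The class II genes whose levels are given here were higher in members within each library. At least 30 UMIs of H2-Aa, H2-Ab1 and H2-Eb1 together were found in 81.9% of members in control, 74.7% in Marfan and 68.9% in the floxed-labelled library, against 36.3%, 44.2% and 32.2% of resident macrophages.

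The start regions of 3 class II genes are shown because they differed from resident macrophages together. The windows run from 250 bases before to 50 bases after the start, from RefSeq on GRCm38.p6, 5' to 3' on the gene's strand: H2-Aa is chr17:34287774-34288073 on the minus strand, H2-Eb1 is chr17:34305617-34305916 and H2-DMb1 is chr17:34152941-34153240, both on the plus strand. Capitals mark ATTGG on either strand, the letters of a CCAAT box, and AACTGATGATGCT, the longest run that the H2-Eb1 and H2-DMb1 windows share.

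H2-Aa: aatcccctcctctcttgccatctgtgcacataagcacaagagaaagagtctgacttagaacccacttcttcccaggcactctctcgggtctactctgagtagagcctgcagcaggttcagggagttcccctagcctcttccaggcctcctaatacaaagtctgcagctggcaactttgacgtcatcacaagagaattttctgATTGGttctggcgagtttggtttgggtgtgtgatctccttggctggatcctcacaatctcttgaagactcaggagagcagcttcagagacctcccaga

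H2-Eb1: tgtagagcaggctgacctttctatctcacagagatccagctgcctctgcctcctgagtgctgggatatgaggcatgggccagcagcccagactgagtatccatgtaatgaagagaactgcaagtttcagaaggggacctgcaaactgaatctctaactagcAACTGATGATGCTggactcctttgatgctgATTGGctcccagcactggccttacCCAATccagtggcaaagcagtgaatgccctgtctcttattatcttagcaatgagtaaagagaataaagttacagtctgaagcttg

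H2-DMb1: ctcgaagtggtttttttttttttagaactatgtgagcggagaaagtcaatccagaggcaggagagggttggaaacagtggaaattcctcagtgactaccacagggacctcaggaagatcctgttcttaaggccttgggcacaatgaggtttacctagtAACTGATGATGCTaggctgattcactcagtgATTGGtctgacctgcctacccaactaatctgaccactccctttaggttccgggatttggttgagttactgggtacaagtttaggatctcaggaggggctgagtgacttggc

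Of the list of 10, H2-Ab1, Cd74 and Ciita had no window. ATTGG was in the other 7, which include list genes under 20 CPM, and in 37.4% of 32851 windows. AACTGATGATGCT began 89 bases before the start of H2-Eb1 and 92 before that of H2-DMb1, with ATTGG at 59 and 61, and stood in 3 windows in all, 0.00913%. The run was chosen because these windows share it, so its presence in both was fixed and the low share shows no enrichment. In H2-Aa, ATTGG began 48 bases before the start. These matches are descriptions of letters, not sites of binding.

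Chemokine ligands split by the cell that carried them. Of 17 measured, 7 were at least 1.5-fold higher and 7 at least 1.5-fold lower in members than in resident macrophages in all 3 libraries, against 4.3% and 11.7% of all genes. Higher were Ccl3, Ccl4, Ccl5, Cxcl9, Cxcl10, Cxcl14 and Cxcl16. Ccl3 stood at 1112, 705 and 1149 CPM in members against 266, 440 and 691. Cxcl16, the membrane-bound ligand of Cxcr6, stood at 557, 672 and 599 CPM against 177, 265 and 231. Cxcl9, an interferon-gamma-induced ligand of Cxcr3, stood at 188, 772 and 164 CPM against 1.31, 35.2 and 1.63, but 93.6%, 25.2% and 77.6% of its UMIs came from 5 members. At least 3 UMIs of Cxcl9 were found in 10 of 155, 107 of 740 and 20 of 460 members. Cxcl10, a second Cxcr3 ligand, stood at 900, 449 and 497 CPM against 90.7, 152 and 92.9. Lower were Ccl2, Ccl6, Ccl7, Ccl8, Ccl9, Ccl24 and Pf4. Ccl6 stood at 243, 249 and 191 CPM in members against 1990, 2365 and 1070. Ccl2, the main ligand of Ccr2, stood at 513, 881 and 894 CPM against 1612, 1964 and 2492. Ccl12, at 936, 1006 and 978 CPM against 742, 1668 and 1198, was higher in control and lower in the 2 Marfan libraries.

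The windows of the 2 neighbouring Cxcr3 ligands are shown because they differed between libraries in opposite directions. Cxcl9 is chr5:92328030-92328329 and Cxcl10 is chr5:92348840-92349139, both on the minus strand of GRCm38.p6 in RefSeq. Capitals mark GAAA, any 2 bases, then GAAA, on either strand, letters found in interferon-stimulated response elements.

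Cxcl9: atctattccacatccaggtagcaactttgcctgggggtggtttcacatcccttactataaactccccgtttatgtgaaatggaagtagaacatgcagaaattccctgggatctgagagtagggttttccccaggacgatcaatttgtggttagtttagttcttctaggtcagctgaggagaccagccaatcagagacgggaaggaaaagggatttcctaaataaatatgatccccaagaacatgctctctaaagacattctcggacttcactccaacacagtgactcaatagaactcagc

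Cxcl10: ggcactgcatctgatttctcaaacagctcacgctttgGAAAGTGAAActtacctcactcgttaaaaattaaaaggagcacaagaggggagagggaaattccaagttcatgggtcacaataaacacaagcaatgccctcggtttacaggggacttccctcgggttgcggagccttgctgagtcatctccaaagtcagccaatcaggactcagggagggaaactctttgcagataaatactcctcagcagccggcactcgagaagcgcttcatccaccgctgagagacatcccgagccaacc

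The letters stood 213 bases before the start of Cxcl10 and were not in this window of Cxcl9. They were in 3.44% of 32851 windows and in 9 of the 14 interferon-response genes that had one. No match says only that these letters are not in this window. Beside them, Cxcl9 was 4.12-fold higher in Marfan members than in control members and Cxcl10 was 2.00-fold lower.

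Inflammatory cytokines and NF-kB targets were higher in members mainly in control. In all 3 libraries 3 of 20 measured genes were at least 1.5-fold higher and 0 lower, against 4.3% and 11.7% of all genes. They were Il1b (interleukin-1 beta), Bcl2a1b and Bcl2a1d (survival proteins). Il1b stood at 1895, 1573 and 2141 CPM in members against 321, 721 and 644 in resident macrophages. Within control alone 12 were higher and 2 lower, against 9.53% and 28.4% of all genes. Tnf stood at 230, 82.7 and 147 CPM against 122, 114 and 143, so that members were above resident macrophages in control, below in Marfan and level in the floxed-labelled library. Il10, an anti-inflammatory cytokine, stood at 3.11, 13.5 and 34.1 CPM in members against 45.4, 50.5 and 42.0. Of 20 immediate early and heat-shock genes, which digestion is known to induce, 0 were higher and 5 were lower, against 4.3% and 11.7% of all genes. Hspa1a stood at 10469, 9034 and 12465 CPM in members and 9579, 9097 and 11877 in resident macrophages, nearly level.

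Receptors of the immunoglobulin-Fc and paired families were mixed. Of 23 measured, 6 were at least 1.5-fold higher in members in all 3 libraries and 4 lower, against 4.3% and 11.7% of all genes, so that the share lower was near the background. Those higher were Cd72, Fcgr4, Cd300c2, Clec7a, Clec12a and Cd52. The count includes Cd52, which is not a receptor of these families, and Cd72, a marker in the label of these cells. Fcgr4, an activating receptor for IgG, stood at 101, 154 and 100 CPM against 20.05, 59.3 and 36.2. Cd52, a small surface glycoprotein, stood at 1798, 2062 and 1823 CPM against 431, 852 and 551. Clec7a, the beta-glucan receptor dectin-1, stood at 221, 225 and 180 CPM against 91.4, 81.4 and 81.7. Fcgr2b, the inhibitory Fc receptor, stood at 121, 211 and 176 CPM against 461, 517 and 425. Of 9 costimulation and adhesion genes, 4 were higher and 0 lower, against the same 4.3% and 11.7%. Slamf7, a homotypic receptor, stood at 202, 192 and 163 CPM against 31.9, 41.0 and 39.9, and Cd40 at 93.8, 64.4 and 49.0 against 26.9, 28.3 and 22.4.

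Of 13 chemoattractant receptors, 2 were higher and 6 lower, against 4.3% and 11.7% of all genes. Ccrl2, a chemerin-binding receptor, stood at 275, 203 and 235 CPM in members against 69.3, 112 and 116. Cx3cr1, the fractalkine receptor, stood at 356, 339 and 359 CPM against 194, 220 and 272. Cx3cr1 was higher in members within each library, but the ratio fell under 1.5-fold in the floxed-labelled library. Ccr2, the receptor of recruited monocytes, stood at 91.2, 150 and 76.6 CPM against 68.0, 106 and 35.3. Of 16 cytokine receptors 1 was higher, Tgfbr1, at 261, 199 and 209 CPM against 74.6, 81.6 and 93.2, and 5 were lower. The share of cytokine receptors that were higher was near the 4.3% of all genes.

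Of 22 transcription factors of macrophages measured, 4 were at least 1.5-fold higher in members in all 3 libraries and 6 lower, against 4.3% and 11.7% of all genes. Higher were Runx3, Irf8, Id2 and Bhlhe40. Irf8, a factor of monocyte and dendritic-cell development, stood at 198, 213 and 194 CPM against 117, 114 and 121, and Id2, an inhibitor of helix-loop-helix factors, at 283, 241 and 261 against 109, 136 and 126. Spi1 (PU.1), the factor that all macrophages need, was level at 440, 434 and 441 CPM against 367, 404 and 388. Klf4 stood at 181, 207 and 272 CPM in members against 538, 456 and 559 in resident macrophages, and Klf2 at 388, 235 and 278 against 861, 672 and 617.

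Genes for clearance were lower in members. Of 13 measured efferocytosis and lipid-efflux genes, 2 were at least 1.5-fold higher and 8 lower in all 3 libraries, against 4.3% and 11.7% of all genes. Axl, a receptor for dying cells, was among the higher at 162, 139 and 143 CPM against 49.6, 71.4 and 59.3. Mertk, a related receptor, was among the lower at 26.9, 29.0 and 35.8 CPM against 99.6, 68.1 and 84.3. Gas6, the ligand that links both to dying cells, stood at 72.5, 172 and 131 CPM against 699, 628 and 633. Of 7 complement genes outside the rule 0 were higher and 5 lower, with C4b, a chain of the classical pathway, at 58.0, 44.5 and 38.5 CPM against 424, 394 and 298. Of 11 haem and iron genes 0 were higher and 5 lower, with Hmox1, haem oxygenase 1, at 78.2, 147 and 220 CPM against 371, 414 and 520.

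Lysosomal and lipid-associated genes were not one-sided. Of 18 lysosomal genes 2 were higher, among them Ctss, and 5 lower, against 4.3% and 11.7% of all genes. Ctss, the cathepsin that trims the invariant chain, stood at 2914, 3715 and 2805 CPM against 1479, 2112 and 1388, while Ctsb stood at 1328, 1441 and 1561 against 2385, 2441 and 2435. Of 13 lipid-associated macrophage genes 3 were higher, Cd9, Lgals3 and Mmp12, and 2 lower, against the same shares of all genes. Lgals3, galectin-3, stood at 987, 1347 and 1189 CPM against 261, 479 and 161. Trem2, the receptor that defines lipid-associated macrophages, was level at 271, 312 and 352 CPM against 248, 287 and 286. Of 12 glycolysis genes 1 was higher and 0 lower, and of 16 oxidative phosphorylation genes 0 and 1, near the background.

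Interferon-response genes differed between the gates to a different extent in each library. Of 20 measured, 16 were at least 1.5-fold higher in members than in resident macrophages in control, 4 in Marfan and 14 in the floxed-labelled library, with 0, 4 and 0 lower. Of all genes 9.53%, 6.85% and 7.5% were higher and 28.4%, 16.2% and 20.1% lower. The 4 lower in Marfan were thus near the background. The medians were 1.99, -0.03 and 0.92 on the log2 scale. Isg15, a ubiquitin-like modifier, stood at 707, 338 and 343 CPM in members and 52.3, 340 and 156 in resident macrophages. Ifit3, an RNA-sensing effector, stood at 281, 109 and 144 CPM and 21.4, 119 and 69.4. Rsad2, viperin, stood at 226, 105 and 108 CPM and 16.8, 100 and 43.2. These 3 levels were highest in control among members and lowest in control among resident macrophages. In control members 48.8% of Isg15 UMIs came from 5 of 155 cells, against 17.0% and 18.8% in the other libraries. At least 10 UMIs of Isg15, Ifit3 and Rsad2 together were found in 14.8%, 14.6% and 13.7% of members, and in 1.56%, 13.9% and 6.12% of resident macrophages. After thinning to 2000 UMIs, at least 1 UMI of the 3 genes was found in 25.8%, 33.2% and 32.2% of members and in 13.5%, 31.6% and 22.3% of resident macrophages, beside 20.8%, 24.5% and 26.5% of stromal cells. In members these shares were lowest in control where the CPM was highest, so no order of the libraries is read from either.

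Between libraries, fewer genes of members passed 1.5-fold than against resident macrophages within a library. From control to Marfan, 284 of 5434 genes (5.23%) were at least 1.5-fold higher and 208 (3.83%) lower. These counts include genes with a higher CPM in stromal cells than in members, which were not named. Among genes past 1.5-fold that met the other naming limits, they were 50 of 85 higher and 10 of 94 lower. The part of stromal RNA in the counts was not tested. Of the genes that mark the cells, some were nearly level and others were lower. Cd72 differed by 0.13 [0.04, 0.22] on the log2 scale, H2-Ab1 by 0.08 [0.05, 0.11] and Itgax by -0.00 [-0.24, 0.24]. Ccl4 differed by -0.84 and Ccl3 by -0.66. Plac8, a monocyte gene, had 2 UMIs in control members and stood at 1.04 CPM, against 185 in Marfan, a log2 difference of 7.48 [5.62, 10.52]. Ccl8, a CC chemokine that resident macrophages also carried, stood at 30.05 CPM in control and 262 in Marfan members, 3.12 [2.75, 3.53] on the log2 scale. In control 89.7% of its UMIs came from 5 cells and in Marfan 36.9%. The difference ran from 1.91, with cells thinned to 4000 UMIs before gating, to 5.34, without cells holding 30 or more stromal UMIs. Fabp5, a fatty-acid-binding protein, stood at 23.8 and 130 CPM. Cxcl9 stood at 188 and 772 CPM, 2.04 [1.89, 2.20]. Sting1 (DNA sensing), Pla2g7 (a lipoprotein phospholipase), Areg (amphiregulin), Clec4a1, Slamf8 and Kcnn4 completed the 10 farthest above, between 0.94 and 1.36 on the log2 scale. Pla2g7, in 56.2% of Marfan members, stood at 87.6 and 202 CPM.

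Farthest below in Marfan members was Fn1. Fn1, fibronectin, stood at 581 CPM in control and 97.1 in Marfan members, -2.58 [-2.71, -2.45]. At least 10 UMIs of Fn1 were in 18 of 155 control members and 24 of 740 Marfan members, so that a minority of cells carried it, and 5 cells held 54.1% of the control UMIs. Il1a, interleukin-1 alpha, stood at 134 and 23.1 CPM, -2.53 [-2.81, -2.26]. Mmp13, a collagenase, stood at 96.4 and 24.8 CPM, and Mmp12 at 248 and 84.7. Tnfaip2, a TNF-induced gene, stood at 191 and 67.0 CPM. Retnla, with 97.0% of control UMIs in 5 cells, differed by -1.96, and by -0.26 with doublets left out. Cmpk2 and Isg20 (interferon-induced), Fxyd2 and Pdlim1 made up the rest. A UMI of Mmp12 was found in 36.8% of control and 12.03% of Marfan members, the same direction as its CPM.

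**Figure D4:**
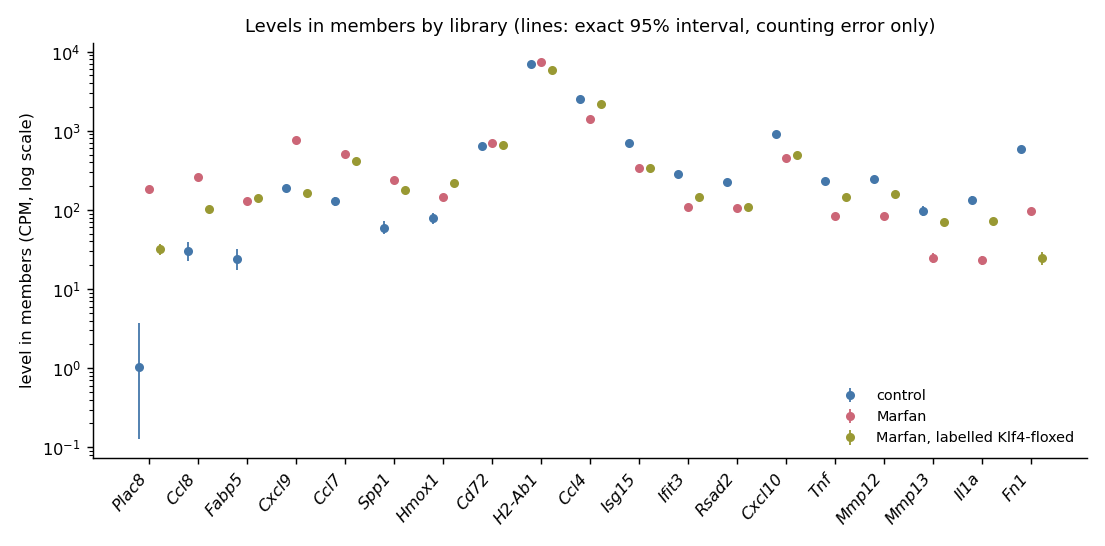
Levels in members (vertical axis, CPM on a log scale) of 19 genes in the control, Marfan and floxed-labelled libraries, with exact 95% intervals for counting error. Cd72 and H2-Ab1 lay close together in the 3 libraries, Plac8 ran from 1.04 to 185 CPM, and Il1a, Mmp13, Tnf and Mmp12 were lowest in Marfan.

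From Marfan to the floxed-labelled library, members differed at fewer genes. Of 5417 genes, 105 (1.94%) were at least 1.5-fold higher and 127 (2.34%) lower. Genes left unnamed for a higher stromal CPM were 10 of 48 higher and 14 of 38 lower. Il1a stood at 23.1 CPM in Marfan and 71.9 in the floxed-labelled library, 1.64 [1.38, 1.90] on the log2 scale. Mmp13 stood at 24.8 and 69.4 CPM, Mmp12 at 84.7 and 158 and Tnf at 82.7 and 147. In each of these 4 genes the level in the floxed-labelled library lay between Marfan and control. Hpgd, which degrades prostaglandins, stood at 248, 126 and 263 CPM in the order control, Marfan, floxed-labelled. Fcrls, Ms4a14 and Plau (urokinase) were also among the 10 farthest above. Rnf19b was too.

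Lower in the floxed-labelled library were Plac8 at 32.0 CPM against 185 in Marfan, -2.53 [-2.78, -2.29], Cxcl9 at 164 against 772, -2.24 [-2.34, -2.13], and Ccl8 at 102 against 262, -1.36 [-1.51, -1.22]. Dnase1l3, a nuclease that degrades DNA in vesicles, stood at 85.3 CPM in Marfan and 36.2. Ccr2 stood at 150 and 76.6 CPM, Ccl5 at 205 and 120 and Zmynd15 at 251 and 141. Clec4b1, Napsa and Ms4a4c completed the 10. The comparisons with Marfan share its library, and Plac8, Cxcl9, Ccl8, Il1a, Mmp12 and Mmp13 are named in both. Against control directly, 273 of 5423 genes (5.03%) were higher and 208 (3.84%) lower in the floxed-labelled library. Genes left unnamed for a higher stromal CPM were here 47 of 80 higher and 13 of 76 lower. The 10 farthest above were Fabp5, Ccl8, Ccl7, Hmox1, Fcrls, Stab1, Areg, Rrad, Taf7 and Clec4n, with Hmox1 at 78.2 and 220 CPM and Stab1, a scavenger receptor, at 36.8 and 99.5. Farthest below were Fn1 at 581 and 24.6 CPM, Retnla, Cenpf, Prc1, Cmpk2, Emilin2, Fxyd2, Gda, Itgal and Pdlim1.

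Gene lists are read against the shares of all genes, 5.23% higher and 3.83% lower from control to Marfan, and 1.94% and 2.34% from Marfan to the floxed-labelled library. From control to Marfan, 1 of 20 interferon-response genes was at least 1.5-fold higher in members and 12 were lower, with a median of -0.66 on the log2 scale against 0.03 for all genes. With each cell counted alike the median in members was -0.30. In resident macrophages of the same libraries 18 were higher and 0 lower, with a median of 1.49, where 3.43% of all genes were higher and 4.28% lower. Inflammatory cytokine and NF-kB genes had 2 higher and 8 lower of 20 in members from control to Marfan, and 7 higher and 1 lower of 21 from Marfan to the floxed-labelled library. Immediate early and heat-shock genes, which digestion can induce, had 0 higher and 4 lower of 20 in members, then 3 higher and 0 lower. Their medians were -0.37 and 0.15, the same directions, and the part of handling in the cytokine values was not tested. Cell-cycle genes had 0 higher and 6 lower of 14 from control to Marfan. MHC class II genes had 0 in either direction of 7 in both comparisons, with medians of 0.06 and -0.30. Monocyte genes had 1 higher and 7 lower of 12 from Marfan to the floxed-labelled library, with a median of -0.81. In resident macrophages the median of this list was -0.67, against 0.0009 for all genes, so it was lower in both gates. Growth-factor and matrix genes had 9 higher and 3 lower of 22 from control to Marfan. Fibroblast markers, which stromal cells carry, summed to 786 and 1472 CPM in the same members, and their part in that count was not tested. Chemokine ligands had 4 higher and 7 lower of 17, and Ccl7, at 128, 513 and 411 CPM in members of control, Marfan and the floxed-labelled library, was among the higher.

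**Figure D5:**
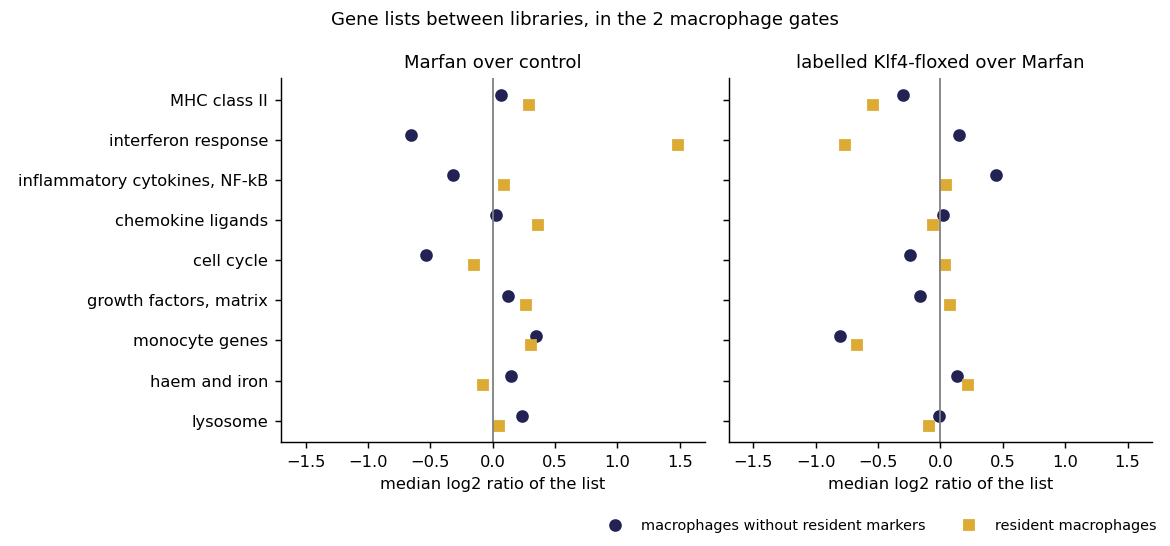
Median log2 ratio of 9 gene lists (horizontal axes), from control to Marfan on the left and from Marfan to the floxed-labelled library on the right, in macrophages without resident markers (circles) and resident macrophages (squares). Interferon-response genes lay at -0.66 in the first and 1.49 in the second from control to Marfan; medians have no error because each group was 1 library.

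Members also varied among themselves. Cells with at least 2 UMIs of the cycling genes Mki67 and Top2a were 18.1% [12.4, 25.04] of members in control, 10.8% [8.67, 13.3] in Marfan and 10.7% [7.99, 13.8] in the floxed-labelled library, against 7.42%, 4.14% and 7.53% of resident macrophages. Mki67 stood at 137, 78.5 and 67.5 CPM in members, the same order, and at 75.6, 39.8 and 55.3 in resident macrophages. At least 10 UMIs of Ccl3 and Ccl4 together were in 63.2%, 47.6% and 58.3% of members. Mrc1 had a UMI in 47.7%, 57.2% and 63.9% of members and in 2.53% to 3.52% of stromal cells, and, thinned to 2000 UMIs, in 21.3%, 34.6% and 40.4% of members, 87.3% to 91.7% of resident macrophages and 0.608% to 0.72% of stromal cells. Spp1, osteopontin, had at least 3 UMIs in 9.03%, 18.9% and 14.1% of members and stood at 59.6, 239 and 180 CPM, but stromal cells held 162, 2047 and 444 CPM of it, and the part of free stromal RNA was not tested.

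Members with more class II RNA carried less Ccl4 in both Marfan libraries but not in control. Members were ranked by the share of class II genes in their UMIs and the bottom and top terciles compared, which is a range and not a type. Ccl4 stood at 2254 CPM in the bottom and 2497 in the top tercile in control, at 1925 and 955 in Marfan, and at 2724 and 1825 in the floxed-labelled library. In Marfan, Ccl2 stood at 1329 CPM in the bottom tercile and 415 in the top, and Cxcl9 at 218 and 1106. Cxcl9 stood at 7.16 and 385 CPM in control but at 105 and 79.0 in the floxed-labelled library. Ccl8 stood at 20.8 and 625 CPM in Marfan and 111 and 201 in the floxed-labelled library, but at 68.7 and 6.56 in control, so that the libraries differed in direction for both chemokines. In control, Fn1 stood at 1521 CPM in the bottom tercile and 19.7 in the top. In control 8 and 18 members, in Marfan 25 and 84, and in the floxed-labelled library 10 and 42 had a share within 10% of the lower and the upper bound.

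Markers of other cell types moved with some of these values. At least 3 UMIs of the monocyte genes Ly6c2 and Plac8 were in 0 of 155 members in control, which by a limit of 3 counts allows up to 1.94% and has an exact upper bound of 2.35%, in 63 of 740 in Marfan (8.51%) and in 8 of 460 in the floxed-labelled library (1.74%). The same held for 0.391%, 6.32% and 0% of resident macrophages and for 0.934%, 7.59% and 1.01% of stromal cells. The Marfan library was thus highest in each of these gates, and the pattern was not particular to members. Ly6c2 had no UMI in control members and stood at 123 and 7.15 CPM in the others. Without members holding at least 3 UMIs of Ly6c2 and Plac8 or at least 5 of S100a8 and S100a9, Cxcl9 differed from control to Marfan by 1.96 on the log2 scale and Ccl8 by 3.26. Plac8 then differed by 1.94, but Plac8 helped to choose the cells left out, so its smaller difference was fixed by that choice. The 6 fibroblast markers summed to 786, 1472 and 2037 CPM in members and 1810, 1288 and 1870 in resident macrophages, with none at 0, against 21750 to 24908 in stromal cells. The 6 smooth muscle markers summed to 45.6, 294 and 114 CPM in members, the 6 neutrophil markers to 20.7, 142 and 19.6 and the 6 endothelial markers to 8.29, 23.2 and 15.6. The 8 dendritic-cell markers summed to 72.0, 70.5 and 36.6 CPM in members. Erythroid markers stayed between 6.22 and 6.52 CPM, T and NK cell markers between 2.73 and 12.1, B-cell markers between 11.4 and 29.9, mast-cell markers between 1.04 and 7.5 and osteoclast markers between 60.6 and 109. From control to Marfan, Timp1, at 5.18 and 144 CPM in members and 284 and 2360 in stromal cells, and Il6, at 3.63 and 37.5 and at 6.25 and 350, moved with the stromal level. The part of these markers in the differences between libraries was not tested, beyond the values without the marked cells.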

How the data were processed

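The deposited files are matrices of UMI counts per gene and cell, 1 per library, made by the authors with Cell Ranger 6.1.2 per the file headers and mm10 per the submitters' processing notes. Its settings were not given in the sources used here. Counts of the 110 features that share a symbol were summed, giving 55292 symbols. The cell filters and gates are those stated with the results. UMIs were summed per library and gate and divided by their total to give CPM. Differences are CPM ratios with conditional binomial intervals, levels have exact Poisson and shares exact Clopper-Pearson intervals, all for counting error only. Counts of genes cover those reaching 20 CPM in the higher group, with 1.5-fold as the bound. With 1 library per group no p-value was computed.

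Named genes were the 12 largest and 12 smallest ratios against resident macrophages, ranked by the library nearest 0, and the 10 largest and smallest per library pair. They needed at least 50 CPM and a UMI in at least 10% of cells in the higher group; gate, mitochondrial, ribosomal and other-cell-type genes and genes higher in stromal cells were left out. Up to 6 genes of each of 33 lists were named too. Where the text goes past that number for a list, the genes were chosen after their values were seen. The members and lists were chosen with earlier results of these data known. Scrublet (scanpy 1.11.5) marked under 0.5% of cells in 2 libraries, where the top scores, 0.8% per 1000 cells, were used instead. The motif letters were searched on both strands of all promoter windows. Python 3.11.15, numpy 2.4.6, scipy 1.17.1 and pandas 2.3.3 were used, and the ratios were tested on simulated data. There were 14 alternative settings. Some genes that met the naming rule are not reported here.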

Additional observations from a re-analysis of the deposited data

Results flagged for a closer look

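By the list median of CPM ratios, interferon-response genes were lower in members and higher in resident macrophages from control to Marfan. The list median was -0.66 on the log2 scale in members and 1.49 in resident macrophages. With each cell counted alike, the median in members was -0.30, and 5 cells held 48.8% of the Isg15 UMIs of control members. After thinning to 2000 UMIs, 25.8% of members in control and 33.2% in Marfan had a UMI of Isg15, Ifit3 or Rsad2, the opposite order to the CPM. In resident macrophages these shares were 13.5% and 31.6%, so by this measure both gates were higher in Marfan. No direction is therefore read for members. The difference between the gates was not tested, since each group was 1 library.

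Barcodes that met the same rule were found in lineage-positive libraries, which were sorted for smooth muscle cells. There were 9 of 12100 in Marfan, of which 2 had a UMI of the reporter TDT. Of these 9, 4 had at least 20 UMIs of the smooth muscle genes Acta2, Myh11 and Tagln together. There were 13 of 6349 in the floxed-labelled library, of which 7 had a TDT UMI and 9 had at least 20 UMIs of these smooth muscle genes. In control there was 1 of 5432, without a TDT UMI.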

How the results depend on the processing

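Of 14 alternative settings, 9 gene ratios of 8724 recomputed for the named genes changed direction, and 7379 moved by less than the error of the value reported. Where no construction is named, the cause was not tested. With resident markers at 0 UMIs, members were 2.55%, 8.12% and 5.94% of lineage-negative cells and 31.0%, 55.7% and 46.7% of C1q macrophages in control, Marfan and the floxed-labelled library. With the limit under 6 UMIs the shares were 11.3% and 67.1% in Marfan, and 56.6% of C1q macrophages in the floxed-labelled library. With cells thinned to 4000 UMIs before gating, they were 11.7% and 67.2% in Marfan and 8.10% and 57.6% in the floxed-labelled library. Leaving out monocyte- and neutrophil-marked cells, chosen after seeing the data, gave 9.50% in Marfan. A minimum of 5 CPM admits more genes: 379 were higher and 989 lower than in resident macrophages, 974 and 602 from control to Marfan, and 366 and 439 from Marfan to the floxed-labelled library. A minimum of 100 CPM admits fewer: 86 and 213, 53 and 59, and 32 and 34. After thinning, Fn1 against resident macrophages in Marfan was 0.77 on the log2 scale, Timp1 in the floxed-labelled library 1.06, and Retnla from Marfan to that library 0.35. Without cells holding 30 or more stromal UMIs, Il6 against resident macrophages in Marfan was -0.26, Timp1 in the floxed-labelled library 0.061, and Gas6 from control to Marfan -0.16. With all members kept, Gas6 was higher in Marfan than in control. Without monocyte- and neutrophil-marked cells, Il6 against resident macrophages in Marfan was -0.29 and Ms4a4c from Marfan to the floxed-labelled library 0.20. Ly6c2 from control to Marfan then came to -0.27. That value is a bound with 3 counts put for control members, which had no UMI of Ly6c2. No direction is read from it. No paired analysis was possible because each group was 1 library. Depth limits genes near 20 CPM in control, where members held 1930260 UMIs against 8667262 in Marfan.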
